A study of Homo sapiens with 9 samples.

Results

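Immediate early and serum response genes are a set of genes that many cells switch on soon after a growth factor, serum or a stress reaches them. Here the set was a list of 38 gene symbols, chosen with earlier results of these data known. Of these, 36 were measured by a probe set with 1 gene symbol, out of 19775 genes measured in all. EGR2 and BTG2 had no such probe set and were not analysed here.

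The signals came from HepG2 cells, a human hepatoma line widely used as a model of hepatocytes, grown as adherent cultures in medium with serum. The 9 arrays formed 3 groups of 3: cells treated for 24 h with 100 nM GW7647, cells treated for 6 h with 100 nM GW7647, and cells given the vehicle, DMSO. GW7647 is a synthetic agonist of PPARα, a nuclear receptor that fatty acids activate and that raises genes of fatty acid oxidation in liver. The cells had been split the day before treatment, and the same vehicle arrays served both treatment times. The labels give no duration for the DMSO cultures, and the effects of GW7647 and of longer culture therefore cannot be told apart.

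Members of the set encode transcription factors (EGR, FOS and JUN proteins, ATF3, MYC, Krüppel-like factors), brakes on the signal that induced them (dual-specificity phosphatases and mRNA decay proteins), and effectors such as the secreted CCN proteins and the kinase SGK1. As a rule their induction needs no new protein: factors already present on the promoter, such as SRF on its CArG box and CREB on the cAMP response element, are activated by kinases such as ERK. In liver the same genes are known to rise within hours of partial hepatectomy, in the first step of regeneration.

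The promoters of 3 members are shown because they carry these elements next to the transcription start. Each is the RefSeq window on GRCh38.p14 from 250 bases before to 50 bases after the start, written 5′ to 3′ on the gene's own strand. EGR1 (chr5:138465229-138465528, plus strand) and SRF (chr6:43171019-43171318, plus strand) each hold 2 CArG boxes, in capitals. DUSP1 (chr5:172771146-172771445, minus strand) holds 1 full cAMP response element, in capitals.
EGR1: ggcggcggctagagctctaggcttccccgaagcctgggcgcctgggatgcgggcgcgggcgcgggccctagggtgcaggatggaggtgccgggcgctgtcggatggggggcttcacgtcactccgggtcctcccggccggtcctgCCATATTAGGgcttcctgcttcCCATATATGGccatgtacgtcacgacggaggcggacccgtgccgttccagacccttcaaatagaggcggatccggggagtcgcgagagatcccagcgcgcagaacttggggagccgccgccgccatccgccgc
SRF: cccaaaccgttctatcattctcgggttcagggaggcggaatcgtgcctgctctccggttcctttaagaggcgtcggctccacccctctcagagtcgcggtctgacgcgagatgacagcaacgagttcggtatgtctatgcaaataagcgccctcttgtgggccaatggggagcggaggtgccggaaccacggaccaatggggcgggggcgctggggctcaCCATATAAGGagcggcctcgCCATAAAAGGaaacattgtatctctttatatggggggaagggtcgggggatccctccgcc
DUSP1: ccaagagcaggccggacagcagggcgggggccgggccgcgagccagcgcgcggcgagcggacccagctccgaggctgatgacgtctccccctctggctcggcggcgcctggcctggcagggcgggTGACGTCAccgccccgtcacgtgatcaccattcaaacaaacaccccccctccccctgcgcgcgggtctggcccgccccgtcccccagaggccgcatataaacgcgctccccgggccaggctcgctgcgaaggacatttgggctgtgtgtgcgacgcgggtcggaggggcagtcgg

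The CArG boxes lay at bases -105 to -96 and -83 to -74 from the start of EGR1, and at bases -30 to -21 and -10 to -1 from that of SRF. A promoter entry was at hand for 28 of the 38 listed members, with 37 windows, and both strands were searched. The CArG box (CC, then 6 bases of A or T, then GG) occurred in 1.29% of 35116 RefSeq promoters, and among the members in EGR1, SRF and EGR2. The cAMP response element TGACGTCA occurred in 1.85% of the promoters and in 4 members, DUSP1, JUND, PPP1R15A and ZFP36L1. The AP-1 motif TGANTCA was in 7.71% of the promoters and in 1 member, FOSL2. The EGR motif GCGNGGGCG was in 9.43% of the promoters and in 10 members, EGR1, SRF and SGK1 among them. The DR1 motif that PPAR binds, searched as AGGTCA repeated in the same direction with 1 base between, was in 0.0228% of the promoters and in 0 of the members' windows. So rare an exact match could hardly be met in 37 windows, so the 0 does not show that the members lack PPAR sites. Hits of different motifs overlapped in 0 cases, and a match of letters is a description and not a bound site.

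Array medians ran from 5.61 to 5.65 log2 units at 24 h, 5.66 to 5.68 at 6 h and 5.63 to 5.66 in vehicle cells, and arrays correlated at 0.997 to 0.999 within a group and at 0.995 to 0.998 between groups. Of 8 hepatocyte markers, 7 were measured and lay between the 84.3 and 100 percentile of all genes. Their summed linear signal ran from 116000 to 118000 at 24 h, 113000 to 116000 at 6 h and 115000 to 119000 in vehicle cells. Of 17 markers of fibroblasts, endothelium, macrophages and lymphocytes, 15 were measured, between the 5.89 and the 70.2 percentile, with a summed signal of 1250 to 1320 at 24 h, 1210 to 1260 at 6 h and 1250 to 1310 in vehicle cells. Only 1 of these 15, CD14, passed the test, as lower at 6 h than in vehicle and higher at 24 h than at 6 h, and 1 hepatocyte marker, TTR, was lower at 24 h than in either other group. The 3′ minus 5′ difference of the actin probe sets was 0.25 to 0.40 at 24 h, 0.27 to 0.30 at 6 h and 0.15 to 0.36 in vehicle cells (log2 units). That of the GAPDH probe sets was 0.018 to 0.022 at 24 h, 0.045 to 0.070 at 6 h and -0.008 to 0.076 in vehicle cells, so the 24 h arrays lay below the 6 h arrays. The part of these differences in the results was not tested.

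After 6 h of GW7647, 15 of the 36 members were higher than in vehicle cells and 0 were lower. The AP-1 subunits JUN, JUNB and FOSL1, their relative ATF3, EGR1, KLF10, SGK1, IER2, IER3 and both CCN genes were among those that rose, with EGR1 highest at 2.01-fold. After 24 h, 6 of the 36 were higher than in vehicle cells and 0 were lower: IER3, CCN2, KLF10, CCN1, EGR3 and MYC. Between the treatment times, 9 members were lower at 24 h than at 6 h, led by EGR1, JUNB and SGK1, and 3 were higher, CCN2, IER3 and MYC. Each array read RNA from many cells, so fewer responding cells and less RNA per cell cannot be told apart.

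A gene was called at a Benjamini-Hochberg adjusted p under 0.05 from limma, adjusted over all 19775 genes. At 6 h against vehicle, 41.7% of the members were called higher, beside 1.64% of all genes, and 0 were called lower, beside 1.91% of all genes. At 24 h against vehicle, 16.7% of the members were called higher, beside 5.38% of all genes, and 0 lower, beside 2.80%. At 24 h against 6 h, 8.33% of the members were called higher, beside 9.23% of all genes, which is close to that background, and 25% lower, beside 4.57%. The members were chosen with earlier results of these data known, so these shares describe the set and are no independent test of it. The median log2 change of the members was 0.189 at 6 h, against 0.004 over all genes, 0.094 at 24 h, against 0.003, and -0.119 between the times, against -0.010. At an unadjusted p under 0.05, 20 members were higher and 0 lower at 6 h, and 10 were higher and 2 lower at 24 h. The share of all genes at that threshold was not computed, so this and later unadjusted counts have no background beside them. The 15 calls at 6 h fell to 10 without vehicle replicate 1 or without any 1 of the 6 h arrays, and the 6 calls at 24 h fell to 4 without vehicle replicate 1 or without any 1 of the 24 h arrays. With each array centred on its median, or with only the compared groups fitted, 11 members were called higher at 6 h, and FOSL1, SRF, ZFP36L1 and MCL1 were the 4 lost. The labels do not say that replicates are separate cultures, and each p-value therefore reflects the spread among these arrays, part or all of which may be technical.

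**Figure D1:**
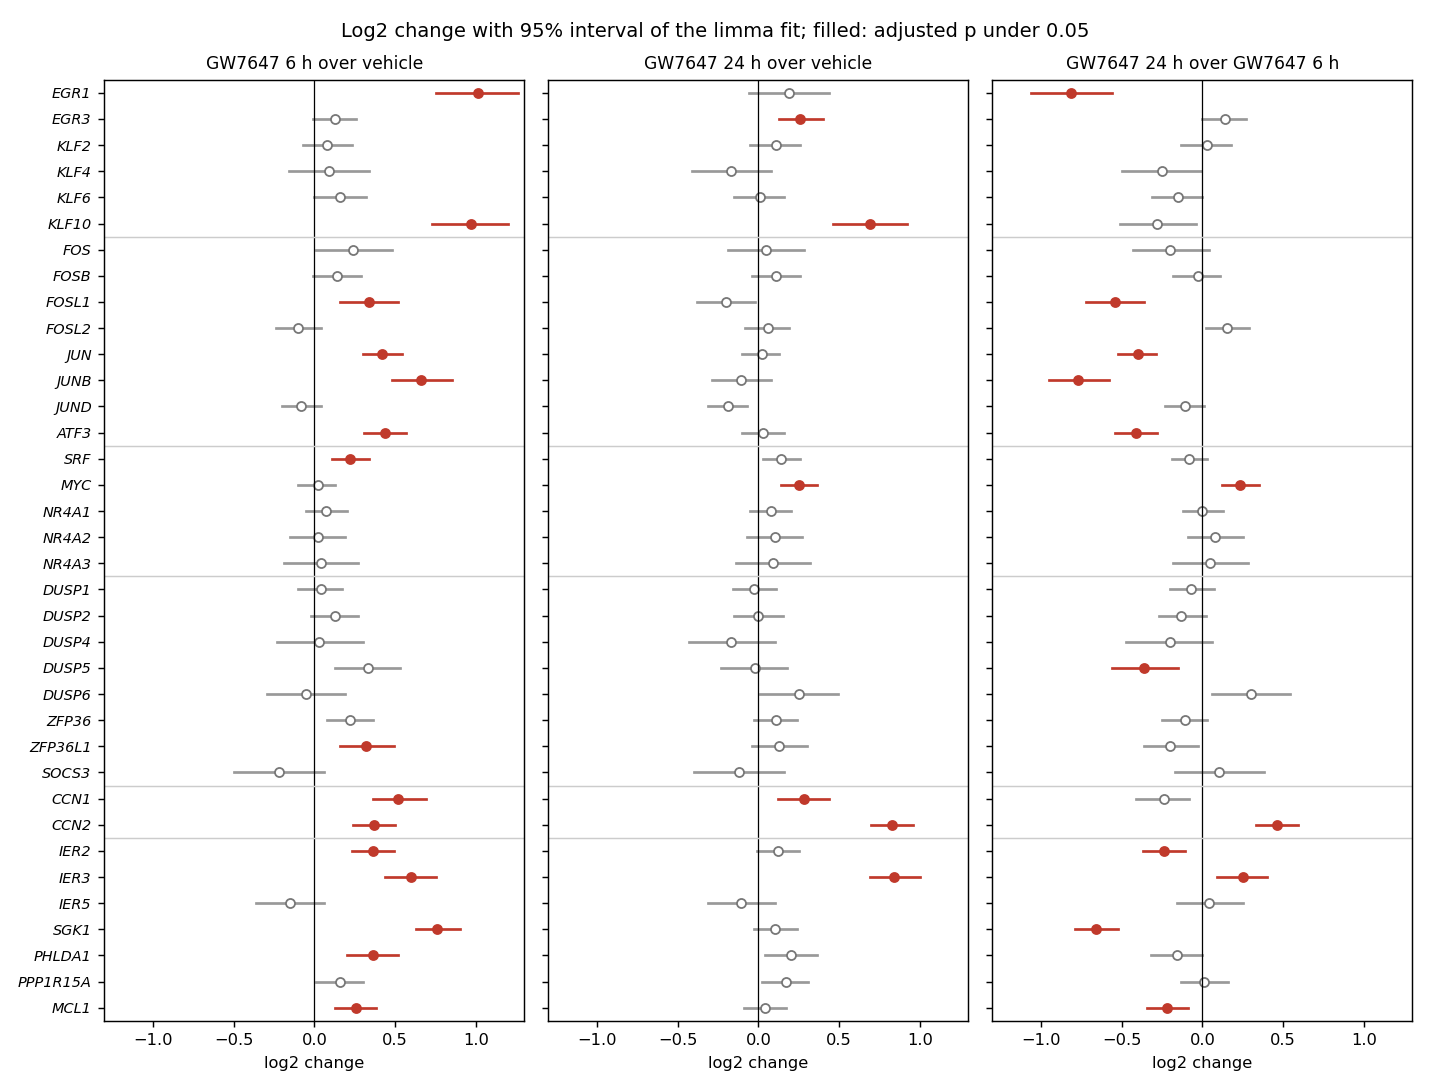
Log2 change of each of the 36 measured members at 6 h over vehicle, 24 h over vehicle and 24 h over 6 h. Points are limma estimates, bars are 95% intervals, and filled points passed an adjusted p of 0.05. At 6 h all 15 called members lie to the right of 0, and between the treatment times 9 called members lie to the left.

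Both treatment times were set against the same vehicle arrays, so the values of a member at the 2 times are given side by side and not correlated. The members called higher at 6 h split by what the 24 h arrays showed. KLF10, CCN1, CCN2 and IER3, 4 members, were called higher at both times. Another 11 were called at 6 h and not at 24 h, and for 8 of these (EGR1, FOSL1, JUN, JUNB, ATF3, IER2, SGK1 and MCL1) the 24 h arrays were lower than the 6 h arrays by the direct test. For the other 3, SRF, ZFP36L1 and PHLDA1, the direct test of the times did not pass with the probe sets used. Another probe set of PHLDA1 was lower at 24 h than at 6 h (log2 change -0.59, adjusted p = 0.00052 in a limma fit over all probe sets with 1 symbol). The rest of its probe sets were not called in that comparison. EGR3 and MYC, 2 members, were called higher at 24 h and not at 6 h.

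**Figure D2:**
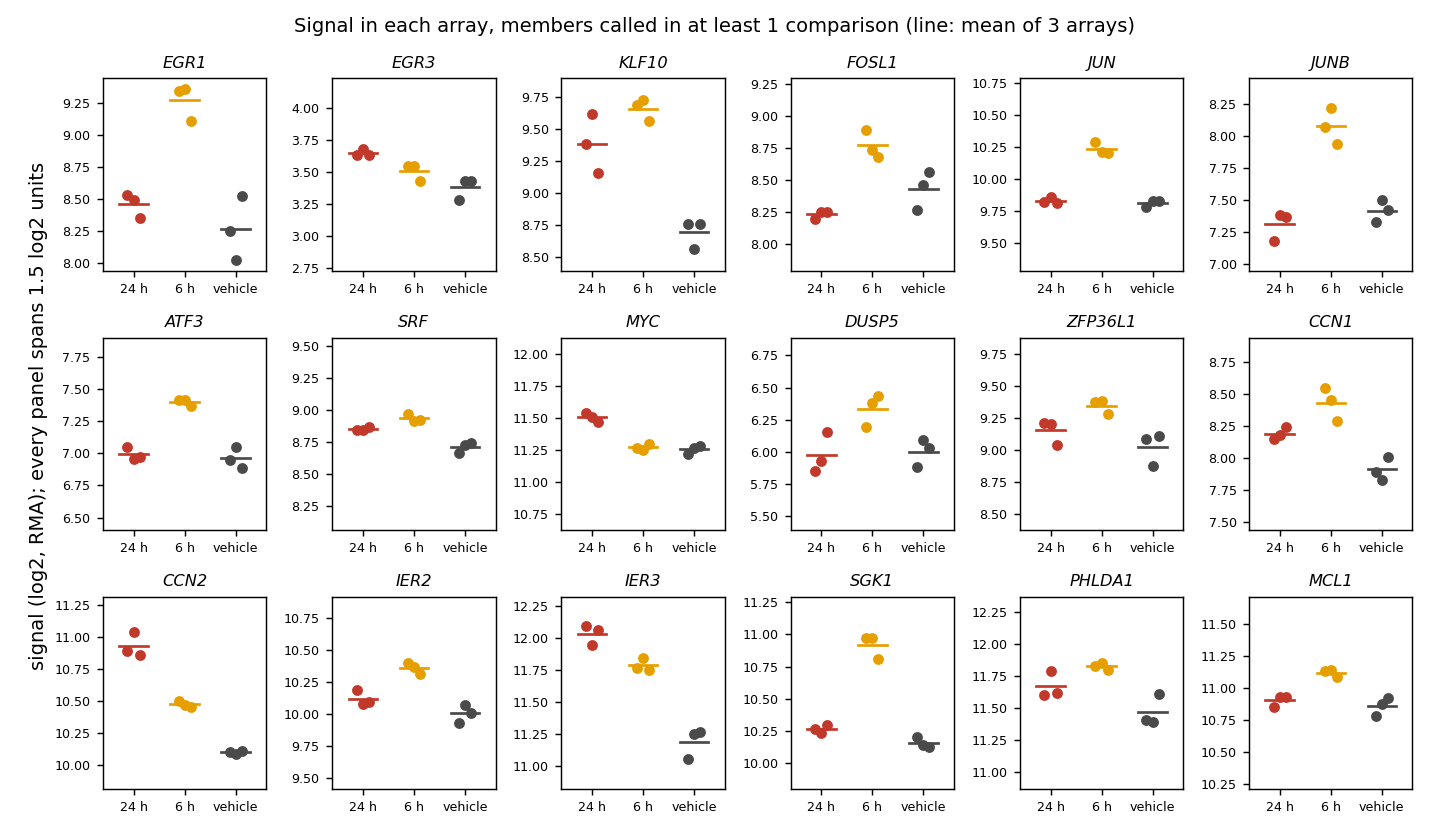
Log2 signal in each of the 9 arrays for the 18 members called in at least 1 comparison, 1 panel per gene, with 24 h on the left, 6 h in the middle and vehicle on the right. Points are arrays, lines are means of 3 arrays, and every panel spans 1.5 log2 units; EGR1, JUNB and SGK1 are highest at 6 h, while CCN2 and IER3 are highest at 24 h.

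Of the EGR and Krüppel-like zinc finger factors, 6 of 7 were measured, and 2 rose at 6 h and 2 at 24 h. EGR1, the factor that binds the EGR motif and whose promoter is shown above, was one of the strongest of the set. EGR1 had log2 signals of 8.53, 8.49 and 8.35 at 24 h, 9.34, 9.36 and 9.11 at 6 h and 8.25, 8.02 and 8.52 in vehicle cells. The 6 h arrays lay above all others, and the 24 h and vehicle arrays overlapped. EGR1 was 2.01-fold higher at 6 h than in vehicle cells (95% interval 1.69 to 2.39, adjusted p = 0.000879), the 21st largest among 324 genes called higher. At 24 h its log2 change over vehicle was 0.19 ± 0.11 (SE, adjusted p = 0.376), and it was lower at 24 h than at 6 h by a log2 change of -0.81 (adjusted p = 0.000905). All 3 probe sets of EGR1 were called higher at 6 h in a fit over all 41091 probe sets with 1 symbol, with log2 changes of 1.01, 0.71 and 0.33.

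KLF10, a factor induced by TGF-beta, was raised at both times. The log2 signals of KLF10 were 9.38, 9.62 and 9.16 at 24 h, against 9.69, 9.73 and 9.56 at 6 h and 8.76, 8.56 and 8.76 in vehicle cells. Every treated array lay above every vehicle array, and the 2 treated groups overlapped. KLF10 was 1.61-fold higher at 24 h (adjusted p = 0.00251) and 1.95-fold higher at 6 h (adjusted p = 0.000712) than in vehicle cells, and the difference between the times did not pass (log2 change -0.28, adjusted p = 0.119). EGR3, a relative of EGR1, was near the bottom of the signal range, at the 5.17 percentile of all genes. For EGR3, the 24 h arrays read 3.63, 3.68 and 3.63, the 6 h arrays 3.55, 3.55 and 3.43 and the vehicle arrays 3.28, 3.43 and 3.43 (log2 signal). The 24 h arrays lay above all others, and the 6 h and vehicle arrays met at 3.43. EGR3 was 1.20-fold higher at 24 h than in vehicle cells (adjusted p = 0.0246), a call that was lost when vehicle replicate 1 or a 24 h array was left out (adjusted p up to 0.0833). KLF2, KLF4 and KLF6, at the 36.5, 21.6 and 84.4 percentile of all genes, passed no test.

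Of the 8 measured AP-1 and ATF3 genes, 4 rose at 6 h, 0 were called at 24 h, and the same 4 were lower at 24 h than at 6 h. At an unadjusted p under 0.05, 0 were higher and 2 lower at 24 h over vehicle. JUN encodes the subunit that pairs with FOS proteins to form AP-1. In the 24 h arrays JUN stood at 9.82, 9.86 and 9.81, in the 6 h arrays at 10.29, 10.21 and 10.20 and in the vehicle arrays at 9.78, 9.83 and 9.83 (log2 signal). Only at 6 h did the arrays stand clear of the rest, and the 24 h and vehicle arrays overlapped. JUN was 1.34-fold higher at 6 h than in vehicle cells (95% interval 1.24 to 1.45, adjusted p = 0.00165) and its log2 change at 24 h was 0.02 ± 0.053 (SE). Between the times it fell by 0.40 on the log2 scale (adjusted p = 0.000563). JUNB, a JUN relative and a weaker activator, moved further. JUNB had log2 signals of 7.18, 7.38 and 7.37 at 24 h, 8.07, 8.22 and 7.94 at 6 h and 7.33, 7.50 and 7.42 in vehicle cells. Again only the 6 h arrays stood apart. JUNB was 1.58-fold higher at 6 h than in vehicle cells (adjusted p = 0.00167), with a log2 change of -0.77 between 24 h and 6 h (adjusted p = 0.000203).

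FOSL1, which encodes the FOS relative FRA-1, rose at 6 h. The log2 signals of FOSL1 were 8.19, 8.25 and 8.25 at 24 h, against 8.89, 8.73 and 8.68 at 6 h and 8.26, 8.46 and 8.56 in vehicle cells. The 3 groups did not overlap, with the 6 h arrays highest and the 24 h arrays just below the vehicle arrays. At 6 h FOSL1 was 1.27-fold higher than in vehicle cells (adjusted p = 0.0453), a call that was lost without any 1 array other than vehicle replicate 3 (adjusted p up to 0.17). At 24 h its log2 change over vehicle was -0.20 (adjusted p = 0.188), and against 6 h it was -0.54 (adjusted p = 0.00137). ATF3, a stress-induced factor that binds JUN proteins, rose at 6 h. For ATF3, the 24 h arrays read 7.05, 6.96 and 6.97, the 6 h arrays 7.42, 7.42 and 7.37 and the vehicle arrays 6.95, 7.05 and 6.89 (log2 signal). All 3 arrays at 6 h exceeded every other array. ATF3 was 1.35-fold higher at 6 h than in vehicle cells (adjusted p = 0.00268), by a probe set with a mean signal of 7.12. But 2 other probe sets of ATF3, with mean signals of 6.91 and 4.68, had log2 changes of 0.02 and 0.00. The call at 6 h was lost when the probe sets were averaged. Between the times its log2 change was -0.41 (adjusted p = 0.00113), which was lost in the same way.

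FOS itself, a dim member at the 26.7 percentile of all genes, did not pass any test. In the 24 h arrays FOS stood at 4.85, 4.96 and 5.00, in the 6 h arrays at 5.14, 5.12 and 5.14 and in the vehicle arrays at 4.74, 5.20 and 4.74 (log2 signal). All 6 h arrays lay inside the vehicle range, in which replicate 2 read higher than the other 2 arrays, and above the 24 h arrays. The log2 change of FOS over vehicle was 0.05 ± 0.11 at 24 h (SE, adjusted p = 0.863) and 0.24 ± 0.11 at 6 h (adjusted p = 0.29). JUND, the constitutive JUN protein, had its lowest signals at 24 h. JUND had log2 signals of 12.10, 12.17 and 12.12 at 24 h, 12.25, 12.21 and 12.24 at 6 h and 12.35, 12.24 and 12.35 in vehicle cells. The 24 h arrays lay below all others. Its log2 change over vehicle was -0.19 ± 0.055 at 24 h (adjusted p = 0.0624) and -0.08 at 6 h (adjusted p = 0.53), so it was not called. FOSB, at the 29.6 percentile of all genes, and FOSL2 passed no test. Another probe set of FOSL2, however, had a log2 change of 0.46 at 24 h over vehicle (adjusted p = 0.00128 in the fit over probe sets) where the one used had 0.06.

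SRF, the factor that binds the CArG boxes shown above, rose slightly at 6 h. The log2 signals of SRF were 8.84, 8.84 and 8.87 at 24 h, against 8.97, 8.91 and 8.92 at 6 h and 8.66, 8.73 and 8.74 in vehicle cells. The 3 groups did not overlap, with the 6 h arrays highest and the vehicle arrays lowest. SRF was 1.17-fold higher at 6 h than in vehicle cells (95% interval 1.08 to 1.26, adjusted p = 0.0386), and its log2 change at 24 h was 0.14 (adjusted p = 0.124). The call at 6 h was lost without any 1 array other than GW7647 24 h replicate 2 (adjusted p up to 0.149).

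MYC, a driver of cell growth and a classical early gene, rose late. For MYC, the 24 h arrays read 11.54, 11.51 and 11.47, the 6 h arrays 11.27, 11.25 and 11.30 and the vehicle arrays 11.22, 11.27 and 11.28 (log2 signal). The 24 h arrays lay above all others, and the 6 h and vehicle arrays overlapped. MYC was 1.19-fold higher at 24 h than in vehicle cells (adjusted p = 0.0117), with a log2 change of 0.02 ± 0.051 at 6 h (adjusted p = 0.915) and of 0.23 between the times (adjusted p = 0.0107, or 0.0505 without GW7647 6 h replicate 2). The orphan nuclear receptors NR4A1, NR4A2 and NR4A3, early genes of many cell types, passed no test. Their log2 changes over vehicle lay between 0.02 and 0.10 at both times. NR4A2 was near the bottom of the signal range, at the 8.65 percentile of all genes, with NR4A3 at the 38.7 and NR4A1 at the 58.5 percentile.

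Of the 8 measured members with a feedback role, 1 rose at 6 h and 0 were called at 24 h over vehicle (1 higher and 0 lower at an unadjusted p under 0.05). ZFP36L1, which binds AU-rich elements and speeds mRNA decay, was the one that rose. In the 24 h arrays ZFP36L1 stood at 9.21, 9.20 and 9.04, in the 6 h arrays at 9.37, 9.38 and 9.28 and in the vehicle arrays at 9.08, 8.87 and 9.11 (log2 signal). The highest 3 values were those at 6 h, and the 24 h and vehicle arrays overlapped. ZFP36L1 was 1.25-fold higher at 6 h than in vehicle cells (adjusted p = 0.0421). That call was lost without any 1 array other than vehicle replicate 3 and GW7647 24 h replicate 3 (adjusted p up to 0.165), and 3 dimmer probe sets had log2 changes of 0.11, -0.12 and -0.01. DUSP5, a nuclear phosphatase of ERK, also had its highest signals at 6 h. DUSP5 had log2 signals of 5.85, 5.93 and 6.15 at 24 h, 6.19, 6.38 and 6.43 at 6 h and 5.88, 6.09 and 6.03 in vehicle cells. Signals at 6 h exceeded all the rest. Its log2 change at 6 h over vehicle was 0.33 ± 0.092 (adjusted p = 0.0782), so it was not called, and at 24 h over 6 h it was -0.36 (adjusted p = 0.0247). That second call was lost without GW7647 6 h replicate 2 or 3 or GW7647 24 h replicate 1 or 2 (adjusted p up to 0.0993).

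Other brakes were not called with the probe sets used. DUSP1, the phosphatase whose promoter with a cAMP response element is shown above, had log2 changes of -0.03 ± 0.061 at 24 h and 0.04 ± 0.061 at 6 h over vehicle. DUSP6, a cytoplasmic phosphatase of ERK that is often read as a gauge of ERK activity, had log2 changes of 0.25 at 24 h (adjusted p = 0.225) and -0.05 at 6 h (adjusted p = 0.858). Between the times DUSP6 had 0.30 (adjusted p = 0.103). Another probe set of DUSP6 was called higher at 24 h than at 6 h (0.37, adjusted p = 0.0483 in the fit over probe sets). The remaining DUSP6 probe set was not (0.06). ZFP36, a relative of ZFP36L1, had a log2 change of 0.22 at 6 h (adjusted p = 0.0886), with its 3 arrays all at 8.09 and above all others. SOCS3, an inhibitor of JAK and STAT signalling, had the lowest log2 change of the set at 6 h, -0.22 (adjusted p = 0.432), with groups that overlapped.

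Both CCN genes, which encode secreted matricellular proteins and are known targets of SRF and of the YAP coactivator, rose at both times, but with different courses. The log2 signals of CCN2 were 10.89, 11.04 and 10.86 at 24 h, against 10.50, 10.47 and 10.45 at 6 h and 10.10, 10.09 and 10.11 in vehicle cells. The 3 groups did not overlap, and the order was 24 h, then 6 h, then vehicle. CCN2 was 1.77-fold higher at 24 h (95% interval 1.62 to 1.94, adjusted p = 1.3e-05) and 1.29-fold higher at 6 h (adjusted p = 0.00668) than in vehicle cells, and 1.37-fold higher at 24 h than at 6 h (adjusted p = 0.000542). For CCN1, the 24 h arrays read 8.15, 8.18 and 8.24, the 6 h arrays 8.55, 8.45 and 8.29 and the vehicle arrays 7.89, 7.83 and 8.01 (log2 signal). The groups again did not overlap, but the 6 h arrays were highest. CCN1 was 1.21-fold higher at 24 h (adjusted p = 0.0432) and 1.44-fold higher at 6 h (adjusted p = 0.00351), with a log2 change of -0.24 between the times that did not pass (adjusted p = 0.0528). The 24 h call of CCN1 was lost when vehicle replicate 1, vehicle replicate 2, GW7647 6 h replicate 2 or a 24 h array was left out (adjusted p up to 0.129), and also after quantile normalization. A second probe set of CCN1 had log2 changes over vehicle of -0.14 at 24 h and 0.15 at 6 h, neither called. It was lower at 24 h than at 6 h (log2 change -0.29, adjusted p = 0.0365 in the fit over probe sets).

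Of the 7 remaining members, 5 rose at 6 h and 1 at 24 h. SGK1, a kinase induced by serum and by glucocorticoids, had the smallest adjusted p of the set at 6 h. In the 24 h arrays SGK1 stood at 10.26, 10.23 and 10.29, in the 6 h arrays at 10.97, 10.97 and 10.81 and in the vehicle arrays at 10.20, 10.14 and 10.12 (log2 signal). The 6 h arrays lay well above all others, and the 24 h arrays lay just above the vehicle arrays. SGK1 was 1.70-fold higher at 6 h than in vehicle cells (95% interval 1.55 to 1.86, adjusted p = 5.47e-05), with a log2 change of 0.10 at 24 h (adjusted p = 0.369) and of -0.66 between the times (adjusted p = 7.56e-05). IER3, an early gene tied to cell survival, rose at both times. IER3 had log2 signals of 12.09, 11.94 and 12.06 at 24 h, 11.76, 11.84 and 11.75 at 6 h and 11.05, 11.25 and 11.26 in vehicle cells. The 3 groups did not overlap, and the 24 h arrays were highest. IER3 was 1.80-fold higher at 24 h (adjusted p = 4.26e-05) and 1.51-fold higher at 6 h (adjusted p = 0.00112) than in vehicle cells. Its log2 change between the times was 0.25 (adjusted p = 0.0387), a call lost without any 1 of the 6 h arrays or without GW7647 24 h replicate 1 or 3 (adjusted p up to 0.122), and after quantile normalization.

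IER2, a nuclear early protein, and the survival gene MCL1, a BCL2 relative, rose at 6 h alone in the comparisons with vehicle. The log2 signals of IER2 were 10.19, 10.08 and 10.09 at 24 h, against 10.40, 10.37 and 10.31 at 6 h and 9.93, 10.07 and 10.01 in vehicle cells. The 6 h arrays were highest, and the 24 h arrays lay just above the vehicle arrays. IER2 was 1.28-fold higher at 6 h than in vehicle cells (adjusted p = 0.00797) and had a log2 change of -0.24 between the times (adjusted p = 0.0196). The second of these was lost without GW7647 6 h replicate 1 or 2 or GW7647 24 h replicate 2 or 3 (adjusted p up to 0.0774). For MCL1, the 24 h arrays read 10.85, 10.93 and 10.93, the 6 h arrays 11.13, 11.14 and 11.08 and the vehicle arrays 10.78, 10.87 and 10.92 (log2 signal). Every 6 h array was above every other array, and the 24 h and vehicle arrays overlapped. MCL1 was 1.19-fold higher at 6 h than in vehicle cells (adjusted p = 0.0357) and had a log2 change of -0.22 between the times (adjusted p = 0.0287). The call at 6 h was lost when vehicle replicate 1, vehicle replicate 2, a 6 h array or GW7647 24 h replicate 3 was left out (adjusted p up to 0.14), and the call between the times without any 1 of the 6 treated arrays (adjusted p up to 0.103).

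PHLDA1, a pleckstrin homology protein induced by growth factors, rose at 6 h by its brightest probe set. In the 24 h arrays PHLDA1 stood at 11.60, 11.79 and 11.62, in the 6 h arrays at 11.83, 11.85 and 11.80 and in the vehicle arrays at 11.41, 11.39 and 11.61 (log2 signal). At 6 h the signals were above those of both other groups, just over the highest 24 h array, and the 24 h and vehicle arrays overlapped. PHLDA1 was 1.28-fold higher at 6 h than in vehicle cells (adjusted p = 0.0239), a call lost when vehicle replicate 1, vehicle replicate 2 or a 6 h array was left out (adjusted p up to 0.106). IER5 and PPP1R15A, a regulator of protein synthesis under stress, passed no test.

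Probe sets of 1 gene did not always move together. The 36 members had 87 probe sets, 15 members had 1 and 21 had several, up to 6. At 6 h over vehicle, the 6 probe sets of PHLDA1 had log2 changes of 0.36 (the one used), 0.66, 0.36, 0.05, -0.14 and -0.26. One of them was called lower at 24 h, with a log2 change of -0.28 (adjusted p = 0.0283 in the fit over probe sets). The 6 probe sets of MCL1 had log2 changes at 6 h of 0.26 (the one used), 0.64, 0.77, 0.47, 0.27 and 0.05, and those of JUN 0.42 (the one used), 0.53, 0.42 and 0.14. In the fit over probe sets, the MCL1 values of 0.64, 0.77 and 0.27 were called (adjusted p = 0.00062, 0.00664 and 0.0498). The one used (adjusted p = 0.0593) and the rest were not. Between the times, in the same order, MCL1 had -0.22, -0.40, -0.52, -0.34, -0.20 and -0.11. Those with -0.22, -0.40 and -0.52 were called (adjusted p = 0.047, 0.00281 and 0.0162). For MCL1 and JUN the direction was the same in every probe set, while for PHLDA1 it was not.

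**Figure D3:**
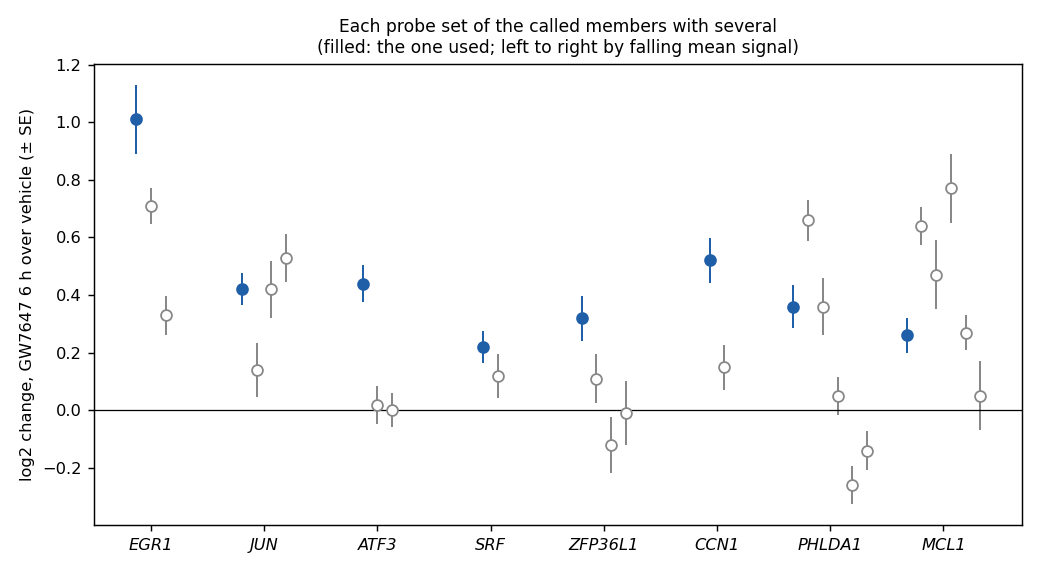
Log2 change at 6 h over vehicle, with its SE as a bar, of each probe set of those members called higher at 6 h that have several probe sets; the filled point is the probe set used. The 3 probe sets of EGR1 run from 0.33 to 1.01, while those of PHLDA1 run from -0.26 to 0.66.

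Genes around the members were read from 9 lists, also chosen with earlier results of these data known. For the counts at 24 h over vehicle, the shares of all genes were 5.38% higher and 2.80% lower. Upstream of them at 6 h, 0 of 19 measured growth factor ligands and receptors were higher and 1, ERBB3, was lower. Of the 24 listed genes of the ERK, JNK and p38 cascade, only 16 were measured. Among these 16, 0 were higher and 1, the adaptor gene GRB2, was lower. Beside the 1.64% of all genes called higher and the 1.91% called lower, counts of 0 and 1 in lists of this size are near the background. The call of ERBB3 at 6 h was lost when vehicle replicate 1, vehicle replicate 3 or a 6 h array was left out (adjusted p up to 0.139), and that of GRB2 without any 1 of the 9 arrays (adjusted p up to 0.2). At an unadjusted p under 0.05 by limma, 2 of the 19 were higher and 5 lower, and 0 of the 16 were higher and 6 lower. Without an all-gene share at that threshold, these counts cannot be set against a background. At 24 h, 3 of the 19 were higher and 0 lower: ERBB3, with a log2 change of 0.93 (adjusted p = 5.73e-06, and 0.45 on the log2 scale when probe sets were averaged), ERBB2 with 0.44 and FGFR1 with 0.39, all genes of receptor tyrosine kinases. The calls of ERBB2 and FGFR1 were lost when probe sets were averaged. Of the 16 cascade genes, 2 were higher and 0 lower at 24 h, a count that fell to 0 without vehicle replicate 1 or GW7647 24 h replicate 1 or 2. Of 13 measured SRF partners and CREB family genes, 1 was called at 6 h, MRTFA, the actin-regulated coactivator of SRF, with a log2 change of 0.46 (adjusted p = 0.0129, and up to 0.0677 without GW7647 6 h replicate 1 or 2), and 0.09, not called, when probe sets were averaged. None of the 13 passed at 24 h over vehicle (1 higher and 0 lower at an unadjusted p under 0.05 by limma).

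Of 15 measured feedback inhibitors outside the set, 4 were higher and 2 lower at 6 h, and 3 were higher and 1 lower at 24 h. Over all genes, 1.64% were higher and 1.91% lower at 6 h, and 5.38% and 2.80% at 24 h. The same shares stand beside the lists below. ERRFI1, which encodes an inhibitor of the EGF receptor, had log2 changes of 0.90 at 24 h (adjusted p = 7.45e-06) and 0.65 at 6 h (adjusted p = 0.000195). SPRY4, an inhibitor of receptor tyrosine kinase signalling, had 0.29 at 24 h and 0.56 at 6 h, and its relative SPRY1 had 0.52 at 24 h. The 4 higher calls at 6 h came to 3 without vehicle replicate 1 or 2, any 1 of the 6 h arrays or GW7647 24 h replicate 3. Those other than ERRFI1 and SPRY4 were lost when probe sets were averaged (log2 changes of 0.24 and 0.18). The 2 lower calls at 6 h, DUSP10 and DUSP14, were both lost without GW7647 6 h replicate 2 or 3. The 1 lower call at 24 h, again DUSP10, was lost without vehicle replicate 2 or 3, GW7647 6 h replicate 2 or GW7647 24 h replicate 2 or 3 (adjusted p up to 0.107).

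Of 34 other early response genes, 9 were higher and 2 lower at 6 h, and 5 were higher and 2 lower at 24 h. CXCL8, a chemokine that draws neutrophils, had a log2 change of 1.40 at 6 h (adjusted p = 1.65e-05) and of -1.65 at 24 h over 6 h. EDN1, which encodes the vasoconstrictor endothelin-1, had 0.81 at 6 h and -0.75 between the times. BHLHE40, a clock-related repressor, had 1.04 at 24 h and 0.69 at 6 h over vehicle, and 0.35 between the times (adjusted p = 0.00813). Without GW7647 6 h replicate 1 or 2, the 9 higher and 2 lower calls at 6 h came to 6 higher and 1 lower. The 2 lower at 24 h, TNFAIP3 and ID3, were both lost without vehicle replicate 3 or GW7647 24 h replicate 3.

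Of 14 AP-1 targets, 2 were higher and 0 lower at 6 h, HMOX1 and SPP1, and both calls went when vehicle replicate 1, vehicle replicate 3 or a 6 h array was left out. At 24 h 2 of the 14 were higher and 1, FN1, was lower. HMOX1, one of the 2 higher, was lost without vehicle replicate 1 (adjusted p = 0.0513), and FN1 without GW7647 24 h replicate 2 or 3 (adjusted p up to 0.0598). Of 8 other bZIP partners of AP-1, 0 were called at 6 h (3 higher and 1 lower at an unadjusted p under 0.05 by limma) and 2 were higher at 24 h, JDP2, a repressor that pairs with JUN, with a log2 change of 1.24 (adjusted p = 7.62e-05), and MAFF with 0.46. When probe sets were averaged, JDP2 was still called, with a log2 change of 0.58. Of 10 YAP targets outside the set, 1 was higher and 1 lower at 6 h, and 1 was higher at 24 h. ANKRD1, the one that rose at 6 h, had a log2 change of 0.72. The lower call at 6 h, LATS2, was lost without vehicle replicate 1 or 3 or GW7647 6 h replicate 2 or 3 (adjusted p up to 0.112). The higher call at 24 h, AXL, was lost without vehicle replicate 1 or 3 or GW7647 24 h replicate 1 or 2 (adjusted p up to 0.0959).

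Of 12 contractile targets of SRF that were measured, 3 were higher and 0 lower at 6 h, and 2 were higher and 3 lower at 24 h. ACTA1, skeletal alpha-actin, had a log2 change of -1.68 at 24 h over vehicle (adjusted p = 2.59e-07), and TAGLN, transgelin, had -1.13 (adjusted p = 6.39e-06). Without probe sets that end in _x_at or _s_at, TAGLN was not called (log2 change -0.13), nor was the remaining lower gene (-0.07). The 2 higher at 24 h were FHL2, with a log2 change of 0.47 (adjusted p = 0.0017), and ACTA2, smooth muscle alpha-actin, with 0.27 (adjusted p = 0.007). The call of ACTA2 was lost when probe sets were averaged (0.12). The 3 calls at 6 h were FHL2, TPM1 and VCL, and the count fell to 1 without vehicle replicate 1 or 2 or GW7647 6 h replicate 1 or 2.

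**Figure D4:**
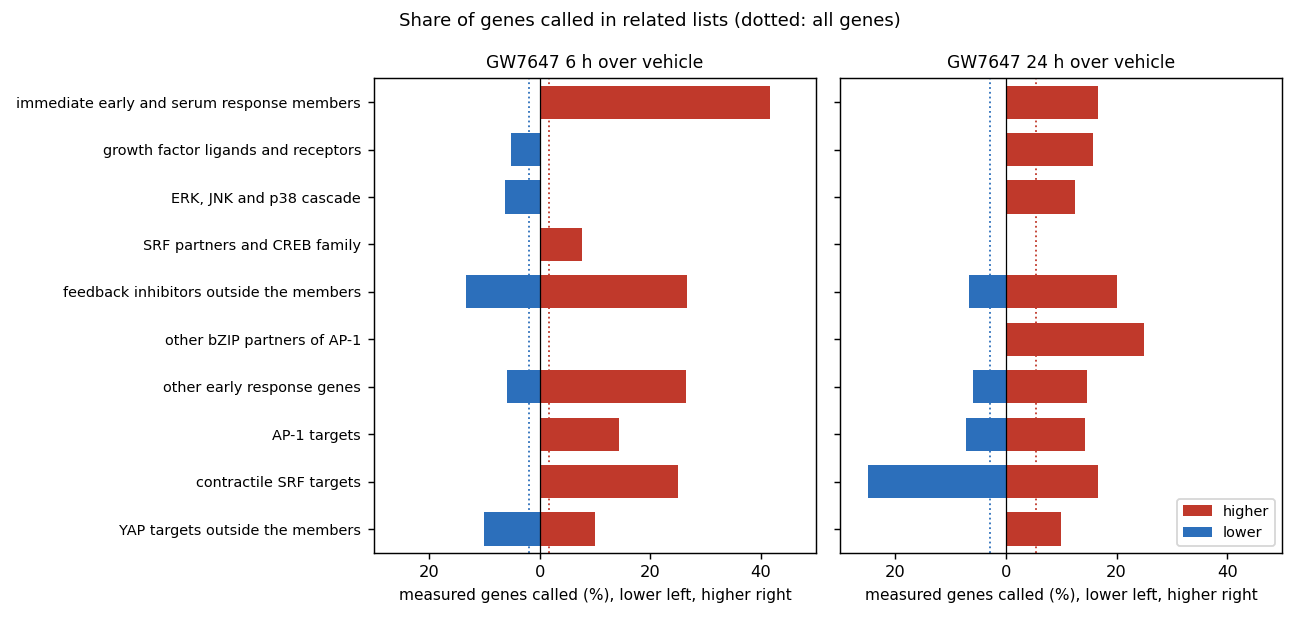
Percent of measured genes called higher (right of 0) and lower (left of 0) at 6 h and at 24 h over vehicle, for the members and for the 9 related lists; dotted lines give the percent of all genes. Among the members, 41.7% were higher at 6 h and 16.7% at 24 h, with 0 lower at either time.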

How the data were processed

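Expression was measured on Affymetrix arrays. The authors deposited log2 signals made with RMA, per the submitters' processing notes, which give no version. The values ran from 2.66 to 15.0 and were used as they were. Among probe sets with a single symbol, the brightest by mean over the 9 arrays stood for its gene, leaving 19775 genes. No filter on signal was applied.

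A group-means model of all arrays was fitted in limma 3.58.1 under R 4.3.3 (values read with version 1.17.8 of data.table), with 6 residual degrees of freedom, and 3 comparisons were tested two-sided with Benjamini-Hochberg adjustment over all genes. The fit was tested on simulated data with independent noise in each array. That test has no bearing on shared cultures or on longer culture. With 3 arrays a group, the smallest exact permutation p is 0.1. The number of arrays limits the precision. The labels do not say that equal replicate numbers mark shared cultures, so no block was used in the main fit.

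Members were found by their symbols. Those called in any comparison, and EGR1, FOS, JUN, ATF3, MYC, CCN1 and CCN2, are given in all arrays, up to 6 others by name, and from each of 9 related lists up to 4 called genes per comparison. Members and lists were chosen with earlier results of these data known. Alternatives covered probe set choice, shared probes, dim genes, scaling, prior, samples fitted, array weights, the block, a threshold of 0.01 and each array left out.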

Additional observations from a re-analysis of the deposited data

Results flagged for a closer look

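For 12 members the change at 24 h differed from the change at 6 h by the direct test of 24 h over 6 h, which does not use the vehicle arrays for the difference itself. The zinc finger factor EGR1 had a log2 difference of -0.81. Of the AP-1 group, JUNB had -0.77, FOSL1 -0.54, ATF3 -0.41 and JUN -0.40. The kinase SGK1 had -0.66, the phosphatase DUSP5 -0.36, the nuclear protein IER2 -0.24 and the survival gene MCL1 -0.22. The 3 that ran the other way were CCN2 with 0.46, IER3 with 0.25 and MYC with 0.23. In the same test, 25% of the members were called lower, beside 4.57% of all genes. The 8.33% called higher, CCN2, IER3 and MYC, are close to the 9.23% of all genes called higher. Of the 12 calls, 7 held in all 9 fits that left out 1 array. Those of MCL1, IER3, DUSP5, IER2 and MYC did not.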

How the results depend on the processing

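Of the 15 members higher at 6 h, 10 were called in all 9 fits that left out 1 array, as were 4 of the 6 at 24 h and 7 of the 12 between the times. Without probe sets that end in _x_at or _s_at, where 27 members are measured, 8 members were higher at 6 h, 2 at 24 h and 1 at 24 h over 6 h. At an adjusted p under 0.01, 3 were higher at 24 h and 1 at 24 h over 6 h. Leaving out 1 array gave 0 to 1 lower members at 24 h (1 without vehicle replicate 2) and 1 to 3 higher members at 24 h over 6 h (1 without GW7647 6 h replicate 2). JUND was the 1 member called lower at 24 h among genes above the median signal, after quantile normalization, with an intensity trend and robust prior, and with array weights. With the probe sets of a gene averaged, ATF3, SRF, ZFP36L1 and PHLDA1 at 6 h (log2 changes of 0.15, 0.17, 0.08 and 0.17) and CCN1 at 24 h (0.07) were not called. Probe sets on their own reversed the sign for ZFP36L1 at 6 h (-0.12 and -0.01), PHLDA1 at 6 h (-0.14 and -0.26) and at 24 h (-0.28), and CCN1 at 24 h (-0.14).

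Over all genes, 701 were called at 6 h, against 454 without shared-probe sets, 1206 above the median signal, 1104 with the trend, 454 with only the compared groups, 234 at 0.01 and 261 to 637 without 1 array. At 24 h 1616 were called, against 921 with only the compared groups, 695 at 0.01 and 1005 to 1664 without 1 array. Between the times 2729 were called, against 1774 without shared-probe sets, 1328 at 0.01 and 1519 to 3082 without 1 array. Of these, 1826 were higher and 903 lower, against 1457 higher and 1207 lower with quantile-normalized arrays and 2175 higher and 653 lower with median-centred ones. No detection calls were used, so no bound was set for dim members such as EGR3, NR4A2, KLF4, FOS and FOSB. For these, a test that did not pass does not show that the gene did not respond. The cause of these shifts was not tested. Deviations of equally numbered arrays correlated at -0.20 to 0.09 over 9 pairs. With 3 arrays a group, whose spread may be technical, this cannot show whether the numbers mark shared cultures. A replicate block gave 427 genes at 6 h, with 11 members higher at 6 h, 5 at 24 h, and 2 higher and 8 lower between the times.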
